A study of Mus musculus with 28 samples.

Results

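Dendritic cells are the antigen-presenting cells that take up material in tissues, load it on MHC class II molecules and carry it to T cells. Conventional dendritic cells are commonly divided into cDC1, which express *Xcr1* and *Clec9a* and cross-present antigen on MHC class I, and cDC2, which express *Cd209a* or other C-type lectins and mainly present to CD4+ T cells. Either kind can mature, and then turns on the chemokine receptor *Ccr7*, which guides migration to lymph nodes, together with *Fscn1*, an actin-bundling protein, and the chemokine *Ccl22*. Here the dendritic cells of mouse jugular veins and arteriovenous fistulas (AVFs) were taken from 3 single-cell libraries by a rule on unique molecular identifiers (UMIs, counts of captured RNA molecules). A barcode was kept with 200 to 6000 genes and at most 10% mitochondrial UMIs, and was taken as a dendritic cell with at least 2 UMIs over *Flt3*, *Zbtb46*, *Clec9a*, *Xcr1*, *Ccl22* and *Fscn1*, at least 0.5% of its UMIs from *H2-Aa*, *H2-Ab1*, *H2-Eb1* and *Cd74*, no *Cd79a* UMI, under 0.2% from *C1qa*, *C1qb* and *C1qc*, and under 1.5% from *Col1a1*, *Col1a2*, *Col3a1* and *Dcn*. The rule found 236 dendritic cells among 16893 kept barcodes (26438 barcodes in all). Levels of the genes in the rule are a description of the choice and not a finding.

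All mice were male or female C57BL/6, and all had a 5/6 nephrectomy, which leaves chronic kidney failure in every group, followed weeks later by an AVF that joined the end of a jugular vein to the side of a carotid artery. The control was the contralateral jugular vein of operated mice, so it shared the kidney injury and the operation. The 3 single-cell libraries, 1 of the contralateral veins and 1 each of early and late AVFs, were made from vessels pooled over animals and sexes and digested at 37 °C. The whole-vessel RNA libraries, 25 in number and 1 per vessel, came from 7 contralateral veins, 8 early AVFs (day 3 in the labels), 5 mid AVFs (day 10) and 5 late AVFs (day 21). With 1 single-cell library per group, group, library and any processing batch cannot be told apart and no p-value is given for any single-cell difference. Single-cell intervals are 95% intervals that cover counting error only.

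The kept barcodes numbered 6319 in contralateral veins, 4753 in early AVFs and 5821 in late AVFs, with median depths of 2751, 8951 and 15425 UMIs. The dendritic cells numbered 22, 84 and 130, with median depths of 7552, 14432 and 21890.5 UMIs and 220324, 1230314 and 3030308 UMIs in total. The contralateral vein values therefore rest on few, shallow cells. No barcode was shared between the dendritic cells of any pair of libraries, although the kept sets shared 5 to 6. A doublet caller marked 0, 2 and 120 kept barcodes in the 3 libraries, too few in the first pair to have worked, and of the dendritic cells it marked 0, 0 and 3. All were kept.

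Dendritic cells made up a larger share of the kept barcodes in AVFs than in contralateral veins. They were 0.348% in contralateral veins (exact binomial interval 0.218 to 0.527), 1.77% in early AVFs (1.41 to 2.18) and 2.23% in late AVFs (1.87 to 2.65). Of the barcodes with a UMI of *Ptprc*, which encodes the pan-leukocyte antigen CD45, they were 1.19%, 2.60% and 4.13%. The rule counts UMIs, and AVF barcodes were deeper. After each barcode was thinned to 1500 UMIs the shares were 0.0447%, 0.535% and 0.605%, the same order. With at least 1 UMI over the 6 genes in the thinned barcodes they were 0.335%, 1.34% and 1.21%, so that the late share lay below the early share. The gap between contralateral veins and AVFs was present on every scale, and the order of early and late AVFs was not fixed by these counts.

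**Figure D1:**
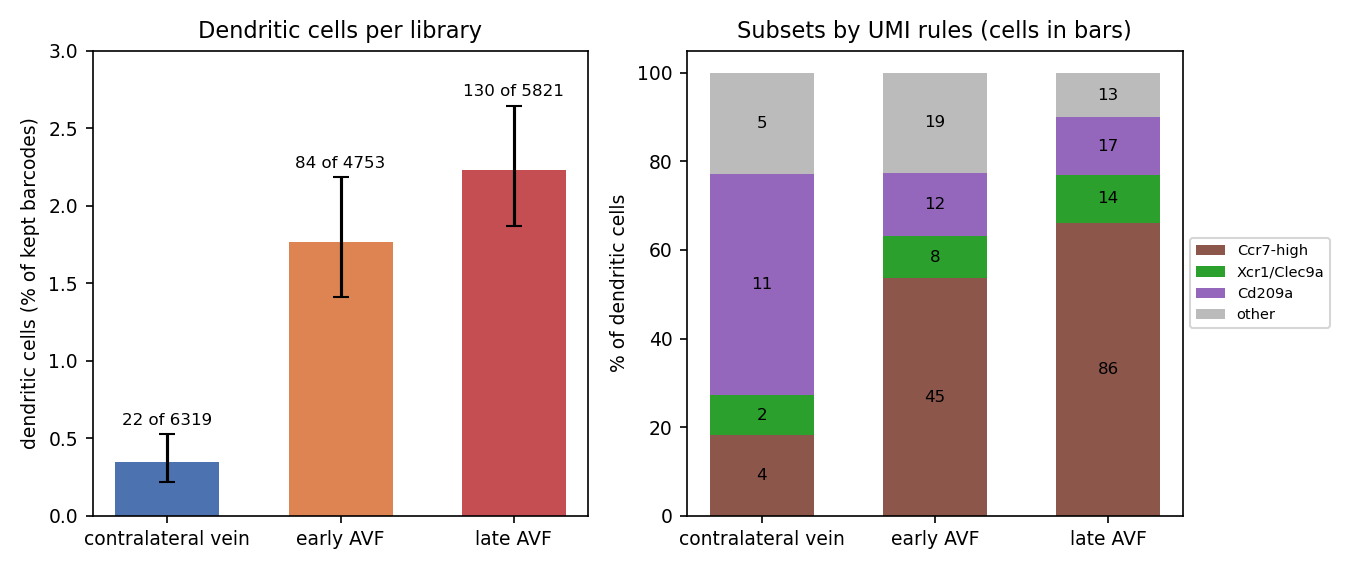
Left, the share of kept barcodes taken as dendritic cells in each single-cell library (percent, bars from 0, error bars exact 95% binomial intervals). Right, the percent of each library's dendritic cells in the Ccr7-high, Xcr1/Clec9a, Cd209a and other subsets, with the number of cells on each segment. The Ccr7-high segment holds 4 of 22 contralateral vein, 45 of 84 early AVF and 86 of 130 late AVF cells.

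How each cell met the rule is given first, which describes the choice and does not test the label. Of the 236 cells, 188 met the minimum over *Flt3*, *Zbtb46*, *Clec9a* and *Xcr1* alone. The other 48 (2, 14 and 32 by library) needed *Ccl22* or *Fscn1*, and 25 had no UMI of the former 4 genes. *Flt3*, the receptor for the dendritic cell growth factor Flt3 ligand, or *Zbtb46*, a transcription factor of conventional dendritic cells, had a UMI in 206 cells. Just inside the minimum, 53 cells had exactly 2 UMIs over the 6 genes, while 126 barcodes that passed the other limits had exactly 1. Near the other limits, 15 cells had 0.5 to 1% of UMIs from the class II genes and 8 barcodes fell just below, 13 cells lay just inside the C1q limit and 21 barcodes just outside, and 8 cells lay just inside the collagen limit and 2 outside. Of genes outside the rule, *Lyz2* and *Irf8* differed between these cells and the C1q-positive macrophages of the same libraries (578, 1439 and 1366 barcodes). Not every such gene did, since *Mgl2*, a cDC2 gene, was higher in the macrophages of contralateral veins, as given below. *Lyz2* was also high in a cluster of the chosen cells that is described below. *Lyz2*, the lysozyme of monocytes and macrophages, was at 849, 1541 and 1542 CPM (UMIs of a gene per 1000000 UMIs, summed over the cells of a library) in dendritic cells, against 5255, 16202 and 7498 CPM in the macrophages. *Irf8*, a transcription factor required for cDC1, was at 381, 462 and 471 CPM against 157, 140 and 154 CPM.

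The dendritic cells were sorted into subsets by fixed UMI rules. A cell was Ccr7-high with at least 2 UMIs over *Ccr7*, *Cacnb3*, *Fscn1* and *Ccl22*, at least 1 of them from *Ccr7* or *Cacnb3*, otherwise Xcr1/Clec9a with at least 2 UMIs over those genes, otherwise Cd209a with at least 2 UMIs over *Cd209a*, *Clec10a* and *Mgl2*. Ccr7-high cells were 4 of 22 in contralateral veins (18.2%, interval 5.19 to 40.3), 45 of 84 in early AVFs (53.6%, 42.4 to 64.5) and 86 of 130 in late AVFs (66.2%, 57.3 to 74.2). Cd209a cells were 11 (50%, 28.2 to 71.8), 12 (14.3%, 7.61 to 23.6) and 17 (13.1%, 7.81 to 20.1). Xcr1/Clec9a cells were 2, 8 and 14, or 9.09%, 9.52% and 10.8%, with intervals that overlap. Ccr7-high cells were thus over 50% of the dendritic cells in each AVF library, and Cd209a cells were the most numerous subset in the contralateral library. Thinned to 1500 UMIs, Ccr7-high cells were 5%, 38.6% and 46.9%, and Cd209a cells were 40%, 6.02% and 13.3%. Since *Ccl22* and *Fscn1* belong to the selection, the shares were taken again over the cells chosen by the other 4 genes, and Ccr7-high cells were then 15%, 50% and 67.3%.

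Clustering of the cells, without the genes of the rule, gave 5 clusters of 42 to 50 cells. The genes that define a cluster describe it and were not tested. A cDC1-like cluster of 50 cells (2, 19 and 29 by library) was led by *Itgae*, the integrin CD103, *Ifi205*, *P2ry14*, *Sept3* and *Wdfy4*, a cross-presentation factor, and held 21 of the 24 Xcr1/Clec9a cells. In it *Xcr1* was at 76.2 CPM, *Clec9a* at 105 CPM and *Irf8* at 1197 CPM. A mature dendritic cell-like cluster of 46 cells (0, 20 and 26) was led by *Fscn1*, *Serpinb6b*, *Cacnb3*, *Fabp5* and *Nudt17*, with *Ccr7* at 4212 CPM, *Ccl22* at 3088 CPM and *Il4i1*, an amino acid oxidase of mature dendritic cells, at 835 CPM. A cluster led by *Cd7*, *Cd209d*, *Phlda1*, *Bcl11a* and *Tent5a* (42 cells) held 16 of the 22 contralateral vein cells, 15 early and 11 late cells, and 27 of its cells were of the Cd209a subset. *Cd209a* was at 697 CPM in it and *Ccr2*, the receptor that brings cells out of the blood, at 430 CPM. No cell of the mature dendritic cell-like cluster came from contralateral veins.

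Another pair of clusters carried *Ccr7* with lectins of cDC2 and remained unnamed. The cluster with *Pgf*, *Il1r2*, *E330009J07Rik* and *Stap1* among its leading genes (50 cells, 3, 17 and 30 by library) had *Ccr7* at 2032 CPM, *Cd209a* at 474 CPM and *Il1b* at 9484 CPM, and 45 of its cells were Ccr7-high. The cluster led by *Lpl*, *Mmp12*, *Tnf*, *Ccl6* and *Rsad2* (48 cells, 1, 13 and 34) departed from the label. *Flt3* was at 9.40 CPM in it against 51.3 to 182 CPM in the others, 28 of its cells needed *Ccl22* or *Fscn1* to be chosen, and 20 had no UMI of *Flt3* or *Zbtb46*. It was above the other clusters in 8 of 11 monocyte and macrophage markers, among them *Lyz2* at 4556 CPM and *Csf1r*, the receptor of macrophage growth factor, at 215 CPM. It is called the Lpl and Mmp12 cluster below, and results that rest on it are given without it as well.

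**Figure D2:**
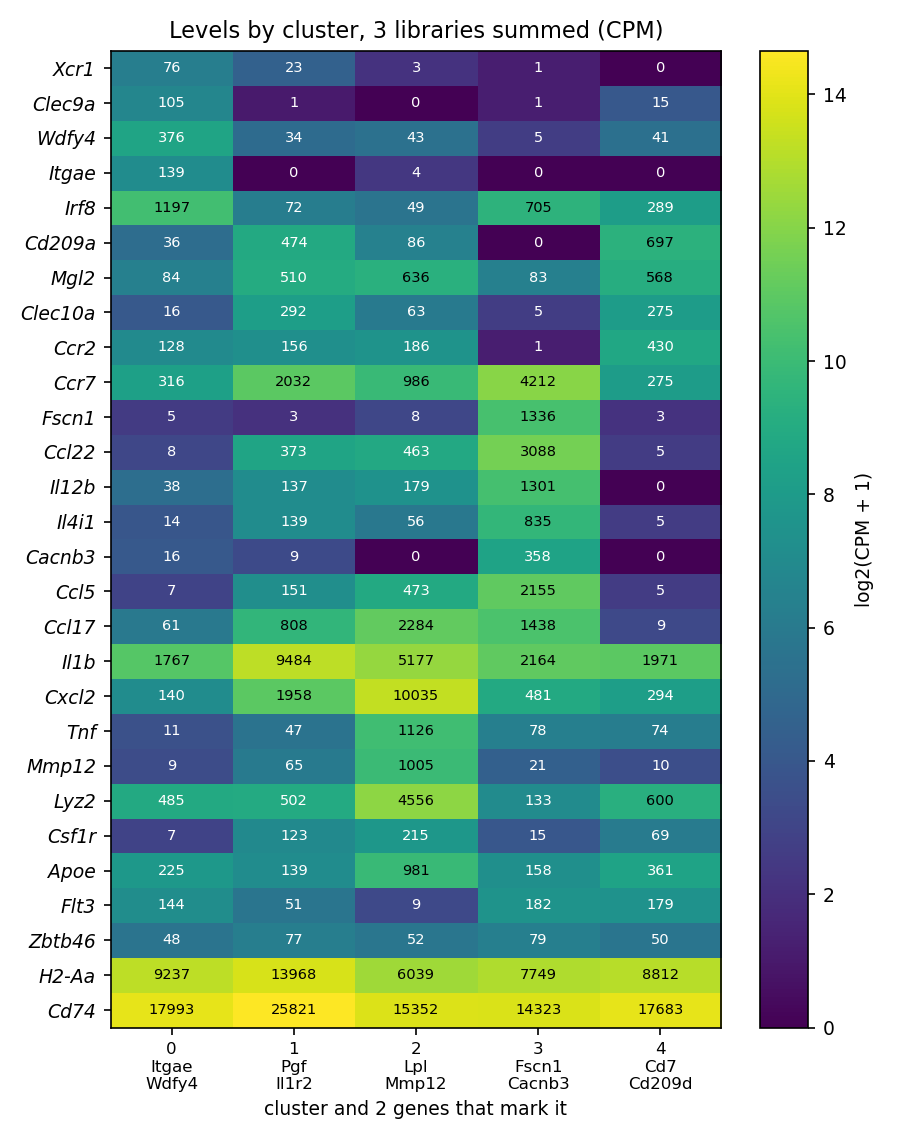
Heat map of gene levels in the 5 clusters of dendritic cells (cells of the 3 libraries summed; colour is log2 of CPM + 1). *Xcr1*, *Clec9a* and *Itgae* are highest in the cDC1-like cluster, *Fscn1*, *Ccr7* and *Ccl22* in the mature dendritic cell-like cluster, and *Cxcl2*, *Tnf* and *Lyz2* in the Lpl and Mmp12 cluster.

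Most maturation genes were higher in AVF than in contralateral vein dendritic cells. A gene was counted as higher or lower when its CPM ratio between a pair of libraries was at least 2 and the counting interval lay beyond 1, among genes with at least 20 UMIs over the pair. In early AVFs 14 of the 19 measured maturation genes were higher than in contralateral veins and 0 lower, where 6.80% of all 6088 genes were higher and 9.17% lower, with a median log2 ratio of 2.05 against −0.07 over all genes. In late AVFs 15 of 22 were higher and 0 lower, against 5.52% higher and 9.50% lower of 8202 genes, with a median log2 ratio of 2.14 against −0.14. *Ccl22* and *Fscn1*, which are among the higher genes, belong to the rule as well, and both comparisons use the same contralateral vein library. The counts also include the 2, 14 and 32 cells (by library) that needed *Ccl22* or *Fscn1* to be chosen. They therefore describe the choice in part, and how large that part is was not tested. Between late and early AVFs, 4 of 22 were higher and 0 lower, against 5.84% higher and 4.13% lower of 8780 genes, and the median log2 ratio was 0.30 against 0.02.

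*Ccr7* was at 300 CPM in contralateral veins, with UMIs in 4 cells, at 1241 CPM in early AVFs (44 cells) and at 1679 CPM in late AVFs (87 cells). It was 4.14-fold higher in early AVFs (interval 3.24 to 5.39) and 5.60-fold higher in late AVFs (4.40 to 7.26). Its level in C1q macrophages was 1.91 to 26.6 CPM. *Fscn1*, a gene of the rule whose levels describe the choice, was at 4.54 (a single UMI), 250 and 233 CPM. *Il4i1* and *Cacnb3*, a calcium channel subunit, had no UMI in contralateral vein dendritic cells and were at least 14.8-fold and 4.42-fold higher in early AVFs and at least 14.3-fold and 5.28-fold higher in late AVFs. *Marcksl1*, a cytoskeletal protein, was 7.72-fold and 10.1-fold higher, *Tmem123* 6.79-fold and 5.96-fold, and *Traf1*, a TNF receptor adaptor, 3.04-fold and 2.53-fold. *Socs2*, an inhibitor of cytokine signalling, was at 4.54, 61.0 and 75.6 CPM, and *Cd200*, an inhibitory surface ligand, at 4.54, 60.1 and 102 CPM. Most of this difference was present in early AVFs and as large in late AVFs.

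**Figure D3:**
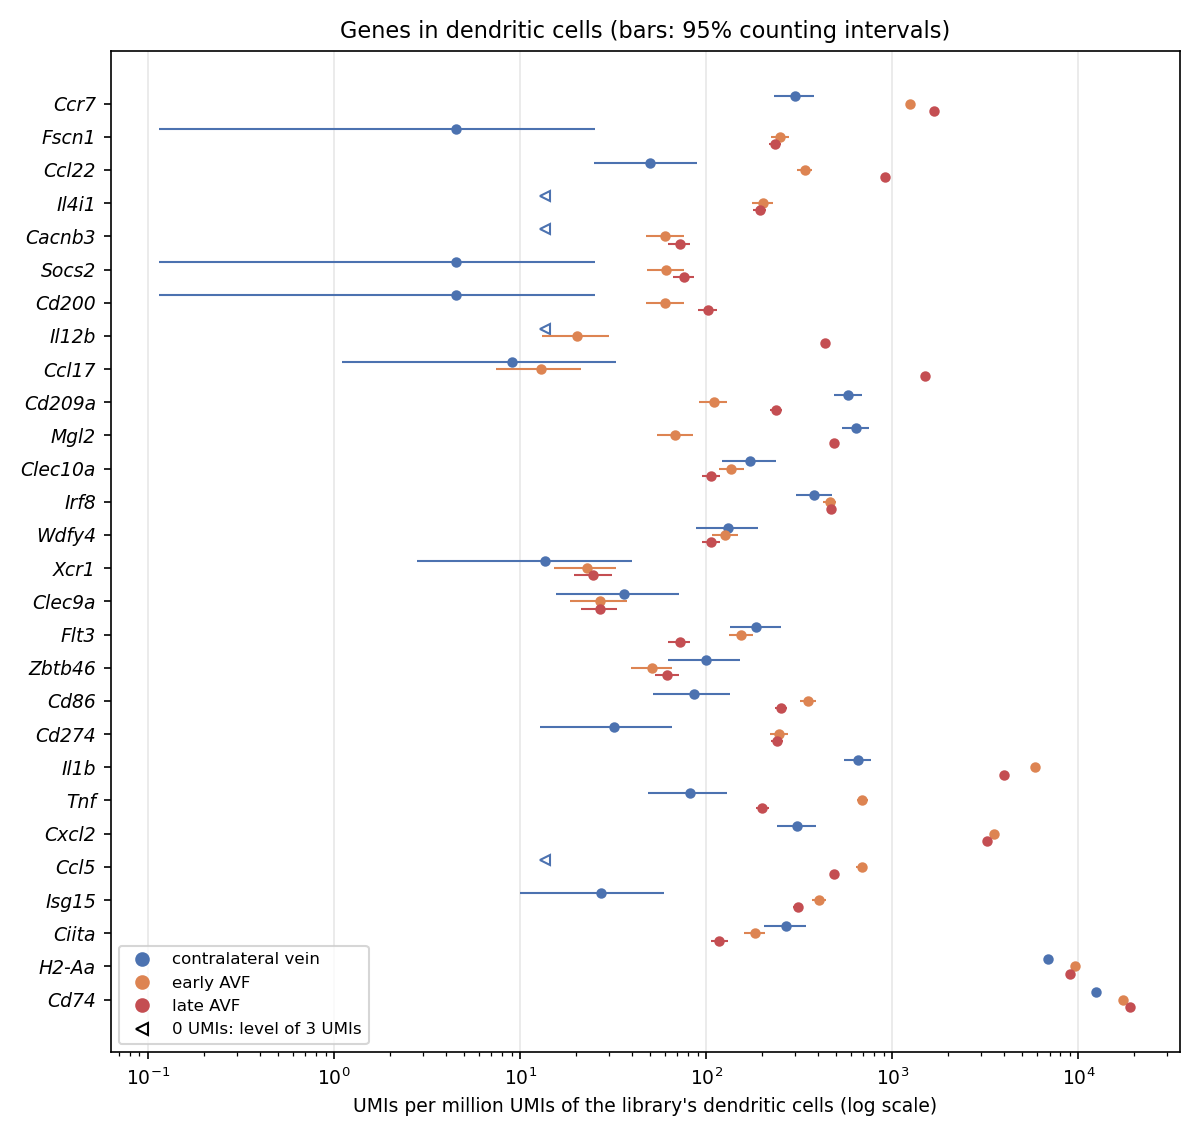
Levels of 28 genes in the dendritic cells of each single-cell library (CPM, log axis; error bars 95% counting intervals; an open triangle marks a gene with 0 UMIs, drawn at the level of 3 UMIs). *Ccr7* and *Il1b* are high in both AVF libraries, *Ccl17* and *Il12b* are high in the late library only, and *Cd209a* and *Mgl2* are lowest in the early library.

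The chemokines *Ccl17* and *Ccl22* attract CCR4-bearing T cells, and lie in the same region of mouse chromosome 8. In the contralateral, early and late libraries *Ccl22* was at 49.9, 338 and 916 CPM and *Ccl17* at 9.08, 13.0 and 1501 CPM. *Ccl22* is a gene of the rule, so its levels describe the choice and are no finding. In whole vessels neither gene was called different between late and early AVFs. Their promoters (the 250 bases before the start site in RefSeq, mouse build GRCm38.p6) are shown since these neighbouring genes had different levels over the same libraries. Capitals mark a match to the STAT6-type motif (TTC and GAA with any 4 bases between) in *Ccl17*, 154 to 145 bases before the start, and a match on the opposite strand to the NF-kappaB-type motif (GGGA and CC with any 4 bases between) in *Ccl22*, 131 to 122 bases before it. The *Ccl17* promoter is chr8:94810203-94810452 and the *Ccl22* promoter chr8:94745434-94745683, both on the plus strand.
Ccl17: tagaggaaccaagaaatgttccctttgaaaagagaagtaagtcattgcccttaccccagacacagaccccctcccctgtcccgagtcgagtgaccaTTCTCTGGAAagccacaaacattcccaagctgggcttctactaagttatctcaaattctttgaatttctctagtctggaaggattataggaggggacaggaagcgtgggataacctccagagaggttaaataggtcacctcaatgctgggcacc
Ccl22: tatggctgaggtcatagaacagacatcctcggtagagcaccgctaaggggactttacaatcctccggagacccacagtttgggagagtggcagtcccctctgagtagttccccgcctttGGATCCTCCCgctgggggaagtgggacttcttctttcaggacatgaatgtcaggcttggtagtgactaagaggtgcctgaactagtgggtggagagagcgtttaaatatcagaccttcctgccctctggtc
Both strands of 32851 promoters of this length were searched. The STAT6-type letters occurred in 5.85% and the NF-kappaB-type letters in 17.6%, and the matches do not overlap another motif searched. A match describes letters only.

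*Ccl17* separated the late from the early AVF library. In contralateral veins there were 2 UMIs in 1 cell, in early AVFs 16 UMIs in 6 cells and in late AVFs 4548 UMIs in 45 cells, of which 29 had at least 10 UMIs. The late level was 115-fold the early level (interval 71 to 202) and 165-fold the contralateral level (45.7 to 1366). The 3 highest late cells held 40.3% of the UMIs. Thinned to 1500 UMIs, *Ccl17* was detected in 0%, 1.20% and 22.7% of dendritic cells. In fibroblasts, which should lack it and had median depths of 4788.5, 16197 and 24710 UMIs, it was detected without thinning in 0%, 0.424% and 2.10%. C1q macrophages were at 0, 0 and 8.22 CPM.

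The late *Ccl17* was spread over several clusters. Between early and late AVFs it went from 35.2 to 2170 CPM in the mature dendritic cell-like cluster (4 of 20 and 15 of 26 cells with a UMI), from 3.70 to 1211 CPM in the Pgf and Il1r2 cluster and from 27.3 to 2829 CPM in the Lpl and Mmp12 cluster. It was at 0 and 85.6 CPM in the cDC1-like cluster, and at 0 and 13.0 CPM in the Cd7 and Cd209d cluster. Without the Lpl and Mmp12 cluster the levels were 9.38, 9.90 and 901 CPM, and over the cells chosen without *Ccl22* and *Fscn1* 9.51, 14.6 and 1107 CPM. The difference was present among Ccr7-high cells (23.2 and 2169 CPM). In the other cells the level was low at both times (0 and 61.4 CPM), and all of their late UMIs were in the Lpl and Mmp12 cluster.

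*Il12b*, which encodes the p40 subunit of IL-12 and IL-23, cytokines that direct T cell responses, had the same order. It had 0 UMIs in contralateral veins, 25 UMIs in 4 cells of early AVFs, of which 21 were in 1 cell, and 1323 UMIs in 19 cells of late AVFs, of which the 3 highest held 53.1%. The late level of 437 CPM was 21.5-fold the early level of 20.3 CPM (14.5 to 33.3) and at least 32.1-fold the contralateral level. Without the Lpl and Mmp12 cluster the levels were 0, 24.7 and 533 CPM. In the mature dendritic cell-like cluster *Il12b* went from 97.8 to 1929 CPM (4 and 11 cells with a UMI), *Ccl22* from 1345 to 3997 CPM and *Ccr7* from 2788 to 4955 CPM. Since few cells carry most of the *Il12b* UMIs, its counting interval understates the spread between cells.

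Within Ccr7-high cells alone, 3 of 22 maturation genes were higher in late than early AVFs and 0 lower, where 6.23% of 7467 genes were higher and 3.82% lower. These were *Ccl22*, *Il12b* and *Tnfrsf4*. *Ccr7*, *Cacnb3*, *Fscn1* and *Ccl22* chose these cells, so their levels within the subset are no finding. *Ccl17* was 93.7-fold (57.6 to 164) and *Il12b* 17.7-fold higher. Other lists also differed within the subset, with 7 of 8 cycling genes, 6 of 11 cDC2 genes and 5 of 13 cDC1 genes higher in late AVFs and 0 lower. *Mki67*, a proliferation marker, was at 36.2 and 115 CPM, *Mgl2* at 117 and 591 CPM, and *Irf4* at 49.2 and 133 CPM in early and late Ccr7-high cells.

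**Figure D4:**
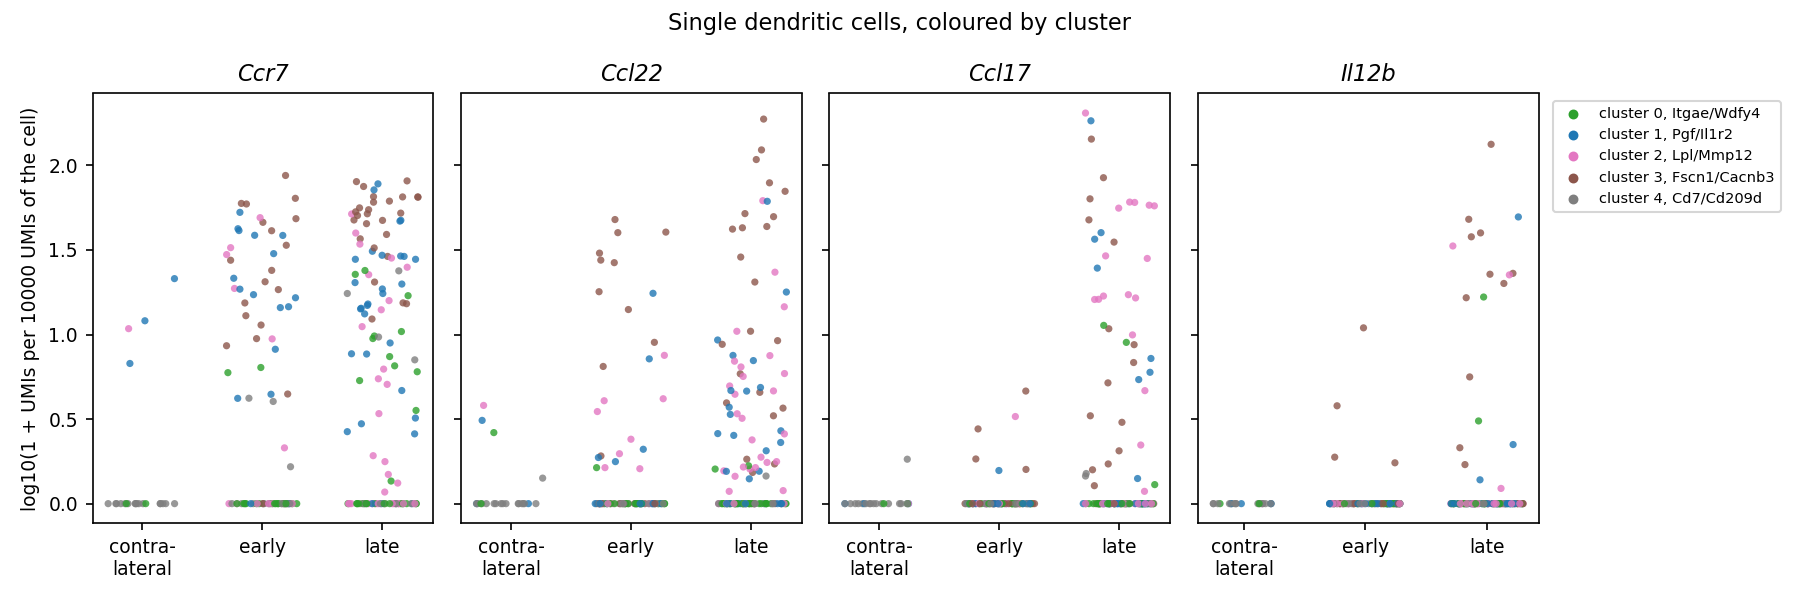
*Ccr7*, *Ccl22*, *Ccl17* and *Il12b* in each dendritic cell (log10 of 1 + UMIs per 10000 UMIs of the cell), by library, with points coloured by cluster. *Ccr7* is detected in 4, 44 and 87 cells, *Ccl17* in 1, 6 and 45 cells, and *Il12b* in 0, 4 and 19 cells, in the order of the libraries.

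The interleukin 1 genes were high in AVF dendritic cells at both times. *Il1b*, a major inflammatory cytokine, was at 654, 5863 and 4007 CPM, with UMIs in 9 of 22, 76 of 84 and 111 of 130 cells. It was 8.97-fold (7.61 to 10.7) and 6.13-fold (5.20 to 7.28) above contralateral veins. Its level in C1q macrophages was 36.9, 1326 and 887 CPM, and in fibroblasts 2.12%, 37.3% and 26.0% of cells had a UMI. Thinned, 30%, 71.1% and 64.8% of dendritic cells had a UMI. *Il1rn*, the interleukin 1 receptor antagonist, was at 9.08 (2 UMIs), 396 and 274 CPM. Outside the Lpl and Mmp12 cluster *Il1b* was at 568, 4628 and 4142 CPM. It was higher in the AVFs in Ccr7-high cells (2604, 7675 and 4854 CPM) and in the others (121, 3542 and 2183 CPM), so the difference was not confined to Ccr7-high cells.

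Of the dendritic cell chemokines, in early AVFs 7 of 11 were higher than in contralateral veins (6.80% of all genes) and 0 lower (9.17%), and in late AVFs 10 of 13 were higher (5.52%) and 0 lower (9.50%), *Ccl22* of the rule included, with median log2 ratios of 1.47 and 2.22. *Ccl5*, which attracts T cells and monocytes, had no UMI in contralateral vein cells and was at 684 and 485 CPM in AVFs, at least 50.2-fold and 35.7-fold higher. It was at 2155 CPM in the mature dendritic cell-like cluster, and in C1q macrophages at 39.1, 85.0 and 341 CPM. *Cxcl16*, which attracts CXCR6-bearing T cells, was at 245, 680 and 677 CPM. *Cxcl9*, an interferon gamma-induced chemokine, was at 0, 6.50 and 218 CPM, but 3 cells held 92.1% of the late UMIs.

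Several inflammatory genes rested on the Lpl and Mmp12 cluster. *Cxcl2*, a neutrophil chemokine, was at 309, 3529 and 3244 CPM over all cells, and at 319, 634 and 858 CPM without that cluster. *Tnf* was at 81.7, 691 and 200 CPM over all cells, and at 23.5, 24.7 and 60.8 CPM without it, so that its order between early and late AVFs turned. These genes were also abundant in C1q macrophages, with *Cxcl2* at 4666, 10405 and 15785 CPM and *Tnf* at 400, 1045 and 1280 CPM, and *Cxcl2* was detected in 17.2%, 91.2% and 95.1% of fibroblasts. *Ccl6* and *Lyz2*, higher in early AVFs than in contralateral veins over all cells, were lower without it. The part of macrophage RNA in these values was not tested.

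Among the cDC2 genes, the C-type lectins *Cd209a*, *Mgl2* and *Clec4b1* were at their lowest in early AVFs. In early AVFs 3 of 10 genes were lower (9.17% of all genes) and 0 higher, and in late AVFs 2 of 11 were lower (9.50%) and 3 higher (5.52%), with median log2 ratios of −0.41 and −0.61. *Cd209a*, a DC-SIGN homologue, was at 581, 110 and 238 CPM, 5.29-fold lower in early and 2.44-fold lower in late AVFs. *Mgl2*, a galactose-binding lectin, was at 635, 68.3 and 486 CPM, which was 9.31-fold lower in early AVFs, and the late level was 7.12-fold the early level (5.72 to 8.99). *Clec4b1* had the same order at 127, 17.9 and 83.2 CPM, whereas *Clec10a* was at 172, 137 and 106 CPM and *Cd209d* at 40.8, 55.3 and 18.8 CPM, both lowest in late AVFs. C1q macrophages had *Mgl2* at 954, 12.7 and 224 CPM, also lowest in early AVFs, and *Cd209a* at 284, 6.24 and 5.10 CPM. In late against early AVFs, 6 of 11 cDC2 genes were higher (5.84% of all genes) and 1, *Cd209d*, lower (4.13%). *Irf4*, a transcription factor of cDC2, was at 49.9, 39.0 and 125 CPM, but at 52.1, 26.8 and 37.3 CPM without the Lpl and Mmp12 cluster.

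*Ccr2* was at 626, 139 and 145 CPM, 4.51-fold and 4.31-fold lower in early and late AVFs. The contralateral library, with 11 of its 22 cells in the Cd209a subset, thus had the highest levels of the receptor for entry from blood and the lowest of *Ccr7*. *Cxcr4*, a retention receptor, was at 663, 369 and 288 CPM. *Ccr1*, an inflammatory chemokine receptor, had no UMI in contralateral veins and was at 133 and 73.9 CPM in AVFs.

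No cDC1 gene was past the 2-fold limit against contralateral veins in either direction, of 12 measured in early and 15 in late AVFs. The contralateral vein cells held only 337 UMIs over the 17 genes of the list, so a difference in a single gene could be missed. Of all genes, 6.80% were higher and 9.17% lower in early AVFs, and 5.52% and 9.50% in late AVFs. The median log2 ratios of the cDC1 genes were 0.26 and 0.25. *Wdfy4* was at 132, 126 and 106 CPM, *Batf3*, a transcription factor required for cDC1, at 72.6, 86.2 and 62.7 CPM, and *Irf8* as given above. In late against early AVFs, *Cadm1*, an adhesion molecule, was 2.03-fold higher (1.13 to 3.90) and *Hepacam2* 4.02-fold higher (2.10 to 8.64), and 0 of 15 were lower. The promoters of *Clec9a*, a receptor for dead cells, and *Xcr1*, a receptor for a chemokine of T and natural killer cells, are shown since these genes define the subset and had matches to the same composite of AP-1 and IRF letters (TTTC and TGA with any 4 bases between). Capitals mark the match, on the strand printed 64 to 54 bases before the start in *Clec9a* and on the opposite strand 127 to 117 bases before it in *Xcr1*. The *Clec9a* promoter is chr6:129408612-129408861 on the plus strand and the *Xcr1* promoter chr9:123862030-123862279 on the minus strand.
Clec9a: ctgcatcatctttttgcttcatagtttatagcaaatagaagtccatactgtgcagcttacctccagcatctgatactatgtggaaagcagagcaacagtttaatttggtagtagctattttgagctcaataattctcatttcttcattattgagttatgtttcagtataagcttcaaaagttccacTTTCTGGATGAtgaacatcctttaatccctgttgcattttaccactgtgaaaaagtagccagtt
Xcr1: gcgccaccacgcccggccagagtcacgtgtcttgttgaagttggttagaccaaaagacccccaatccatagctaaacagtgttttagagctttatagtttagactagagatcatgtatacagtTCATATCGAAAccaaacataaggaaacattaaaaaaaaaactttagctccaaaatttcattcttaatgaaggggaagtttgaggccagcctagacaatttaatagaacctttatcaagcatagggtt
The composite letters occurred in 3.82% of the 32851 promoters. The match overlaps none of the other motifs searched.

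Few antigen presentation genes were past the 2-fold limit. The 11 class II presentation genes summed to 35874, 47442 and 47984 CPM, of which the 4 genes of the rule, which had to be high, made up 33664, 44782 and 45617 CPM. Of the 11 genes, only *Ctss*, a protease that trims the class II invariant chain, was higher in early AVFs (2.01-fold, interval 1.67 to 2.45) and none was lower. In late AVFs *Ciita*, the class II transactivator, was 2.27-fold lower and *H2-Ob*, a subunit of the peptide exchange inhibitor H2-O, 2.14-fold lower, and none was higher. The class II genes of the rule are not a finding, but their background can be given. *H2-Aa* was at 6890, 9620 and 9021 CPM in dendritic cells and at 4057, 1375 and 4913 CPM in C1q macrophages. The 10 class I presentation genes summed to 5832, 6671 and 6031 CPM, and *Psmb9*, an immunoproteasome subunit, was the only one past 2-fold, at 2.03-fold in early and 2.02-fold in late AVFs.

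Costimulatory and coinhibitory genes were higher in AVFs for 4 of 9 genes in early and 5 of 10 in late samples, where 6.80% and 5.52% of all genes were. *Cd86*, a ligand of CD28, was at 86.2, 354 and 252 CPM, and *Cd274*, which encodes the inhibitory ligand PD-L1, at 31.8, 247 and 241 CPM. *Cd274* was 7.78-fold (3.73 to 19.5) and 7.59-fold (3.67 to 19.0) higher. *Cd40*, the receptor of T cell help, was at 27.2, 79.7 and 71.6 CPM, and *Pdcd1lg2*, another inhibitory ligand, at 4.54, 17.1 and 40.3 CPM. Genes that activate and genes that restrain T cells were thus higher together. *Cd80* and *Cd83* were not past 2-fold, and *Tnfsf9*, the 4-1BB ligand, was lower in late AVFs at 153 against 327 CPM.

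Sensors and interferon-stimulated genes were higher in AVFs for part of their lists. *Clec4e*, a receptor for damaged cells and mycobacteria, was at 0, 549 and 165 CPM, and *Cd14*, a co-receptor for lipopolysaccharide, at 90.8, 687 and 422 CPM, and 3 of 4 sensors in early and 3 of 7 in late AVFs were higher (6.80% and 5.52% of all genes) and 0 lower. Without the Lpl and Mmp12 cluster *Clec4e* was at 0, 178 and 16.8 CPM and *Cd14* at 75.0, 284 and 261 CPM. *Tlr2*, the remaining sensor, was at 31.8, 93.5 and 73.6 CPM over all cells and at 28.1, 33.7 and 24.4 CPM without the cluster, so that its late level was then below that of contralateral veins. Of the interferon-stimulated genes, 4 of 10 were higher (6.80% of all genes) and 0 lower in early AVFs, and 5 of 10 were higher (5.52%) and 1 lower (9.50%) in late AVFs. *Isg15* was at 27.2, 403 and 312 CPM and *Ifit1* at 0, 168 and 140 CPM. Without the Lpl and Mmp12 cluster *Isg15* was at 28.1, 331 and 300 CPM and *Ifit1* at 0, 11.9 and 32.6 CPM, and *Rsad2*, an antiviral enzyme, went from 40.8, 283 and 149 CPM to 23.5, 23.8 and 24.9 CPM. The *Isg15* difference was thus present outside that cluster, while those of *Ifit1* and *Rsad2* rested mostly on it. In C1q macrophages *Isg15* was at 204, 384 and 636 CPM.

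Stress genes had the opposite order. Of 12 heat shock and immediate early genes, 5 were lower and 0 higher in each AVF library (9.17% and 9.50% of all genes were lower), and their sum was 31495, 15748 and 16453 CPM. *Hspa1b*, a heat shock protein 70, was at 8138, 2814 and 2488 CPM and *Jun* at 2356, 1159 and 1154 CPM. In C1q macrophages *Hspa1b* was at 8791, 3497 and 9880 CPM, so that its order there was different.

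Cycling genes were higher in late than in early AVFs for 7 of 8 genes (5.84% of all genes), with a median log2 ratio of 1.61 against 0.02. *Mki67* was at 54.5, 39.0 and 102 CPM and *Top2a* at 63.5, 21.1 and 91.1 CPM. Against contralateral veins 2 of 4 were lower in early AVFs (9.17% of all genes) and 0 higher (6.80%). In late AVFs 2 of 8, *Birc5* and *Stmn1*, were higher (5.52%) and 0 lower (9.50%). Thinned to 1500 UMIs, the late log2 ratio of *Stmn1* turned to −0.36.

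Genes outside these lists included some of the largest ratios. Higher in early AVFs than in contralateral veins were *Areg*, an EGF receptor ligand of tissue repair, at 416 against 4.54 CPM, *Thbs1*, thrombospondin, at 699 against 9.08 CPM, and *Fabp5*, a fatty acid-binding protein, at 2028 against 31.8 CPM. *Areg* had UMIs in 15 of 84 early cells. Higher in late than early AVFs were *Retnla*, a marker of alternative activation, at 205 against 0.813 CPM in 14 and 1 cells, and *Aldh1a2*, which makes retinoic acid, at 40.9 against 1.63 CPM. Lower in both AVF libraries were *Tnfrsf23*, at 463 CPM in 4 contralateral vein cells against 4.06 and 1.98 CPM, and *Slc2a3*, a glucose transporter. *Il17a*, a T cell cytokine, was lower in late AVFs, but its 52 early UMIs were in 1 cell.

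Markers of other cells were measured in the dendritic cells for whole lists. The 7 B cell markers summed to 136, 72.3 and 65.7 CPM, with *Pax5* at 0 in all 3 libraries. The T cell list summed to 4.54, 50.4 and 8.25 CPM, and the natural killer and innate lymphoid list to 132, 119 and 367 CPM, with *Ncr1* and *Nkg7* at 0 in all 3 libraries. The monocyte and macrophage list summed to 2787, 4342 and 2912 CPM. Of its genes 4 of 14 were higher (6.80% of all genes) and 2 lower (9.17%) in early AVFs. In late AVFs 1 of 13 was higher (5.52%) and 4 were lower (9.50%). The 4 smooth muscle genes summed to 4.54, 82.1 and 291 CPM, and *Acta2* was at 4.54, 50.4 and 147 CPM in dendritic cells, 49.3, 72.8 and 137 CPM in C1q macrophages and 25.3, 604 and 273 CPM in fibroblasts. Plasmacytoid dendritic cell genes summed to 531, 768 and 297 CPM, and *Siglech*, a lectin of those cells, was at 0, 39.8 and 8.58 CPM. The part of such RNA in the other values was not tested.

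Whole-vessel RNA gives the same genes over 25 separate vessels, and there a test was possible. In bulk samples, fewer cells of a type and less RNA per cell cannot be told apart. Calls are by edgeR's quasi-likelihood test over 20076 genes, at an adjusted p below 0.01 with a log2 fold change of 1 or more in either direction. Of 62 tested genes in the dendritic cell lists, 15 were called higher and 7 lower in early AVFs, where 13.9% of all genes were called higher and 5.03% lower. In mid AVFs 11 were higher and 2 lower, against 11.3% and 2.74%, and in late AVFs 11 higher and 2 lower, against 11.0% and 2.43%. In late against early AVFs 1 was higher and 0 lower, against 0.394% and 0.897%. The list as a whole was not tested. The median log2 fold changes were 0.58, 0.93 and 0.85 against 0.19, 0.14 and 0.15 over all genes.

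Some maturation genes were called higher at all 3 times and others were not. Of 21 tested, 7 were higher and 2 lower in early AVFs (13.9% and 5.03% of all genes). In mid AVFs 5 were higher and 1 lower (11.3% and 2.74%), and in late AVFs 5 higher and 0 lower (11.0% and 2.43%). *Ccl22*, *Ccr7*, *Fscn1*, *Il12b* and *Apol7c* were higher each time. *Tmem123* and *Cd200*, which were higher in AVF dendritic cells, went the other way in whole vessels. *Tmem123* fell by 1.54 on the log2 scale in early (adjusted p = 5.7e-05) and by 1.20 in mid AVFs (adjusted p = 0.0035), and its late change of −0.71 was not called. *Cd200* fell by 1.73 in early AVFs (adjusted p = 1.3e-04), with changes of −0.92 and −0.41 later that were not called, and *Socs2* changed by −0.59, −0.41 and −0.48 and *Traf1* by 0.47, 0.77 and 0.59, none called. *Ccl22* was at 0 in 6 of 7 contralateral veins and at 0.202 CPM in the other. It was at 0.983, 9.30 and 19.9 CPM (lowest, median and highest) in early AVFs, at 8.79, 13.0 and 17.7 CPM in mid AVFs and at 6.98, 11.5 and 14.5 CPM in late AVFs. Every AVF lay above all contralateral veins, with log2 changes of 8.05 ± 1.08 in early (± SE, adjusted p = 4.3e-06), 8.57 ± 1.12 in mid and 8.26 ± 1.11 in late vessels. *Ccr7* was at 0 in 6 contralateral veins and 0.313 CPM in another. In early AVFs it was at 0, 9.88 and 31.1 CPM, in mid AVFs at 5.48, 11.1 and 16.2 CPM and in late AVFs at 5.89, 10.9 and 20.9 CPM. The groups overlapped only through 1 early AVF at 0, and the log2 fold changes were 8.02 ± 1.36 (adjusted p = 8.5e-05), 7.73 ± 1.37 and 7.93 ± 1.38 (adjusted p = 2.2e-04). *Fscn1* was at 0.122, 1.33 and 5.79 CPM in contralateral veins and 18.9 to 53.4 CPM in AVFs, a log2 change of 4.38 ± 0.59 in early vessels, although fibroblasts and endothelial cells also had it (35.7 and 90.9 CPM in late AVFs).

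*Ccl17* was called in whole vessels at all 3 times, without the early to late difference of the single cells. It was at 0 in 6 contralateral veins and 0.135 CPM in the other. In early AVFs it was at 0.312, 3.93 and 7.32 CPM, in mid AVFs at 6.99, 8.10 and 10.9 CPM and in late AVFs at 3.72, 5.63 and 8.26 CPM. All AVFs were above all contralateral veins, with log2 fold changes of 7.13 ± 1.05 (adjusted p = 1.4e-05), 8.41 ± 1.12 and 7.80 ± 1.10 (adjusted p = 2.1e-05). The early and late AVFs overlapped, and the difference of 0.67 ± 0.82 on the log2 scale was not called (adjusted p = 0.958). *Il12b* was likewise called at each time, with log2 fold changes of 5.58 ± 1.44 (adjusted p = 0.0042), 6.71 ± 1.54 and 5.79 ± 1.49 (adjusted p = 0.0056), and differed by 0.21 ± 1.19 between late and early AVFs. The late call was lost without contralateral vein 31 (5.63), without contralateral vein 632 (5.61) or without late AVF 17 (5.67). The whole vessels came from other animals than the pools, and their early group carried day 3 in its labels. The label of the early pool gives no day. The study's methods give later mean days for the pools than for the whole vessels, in both early and late AVFs.

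**Figure D5:**
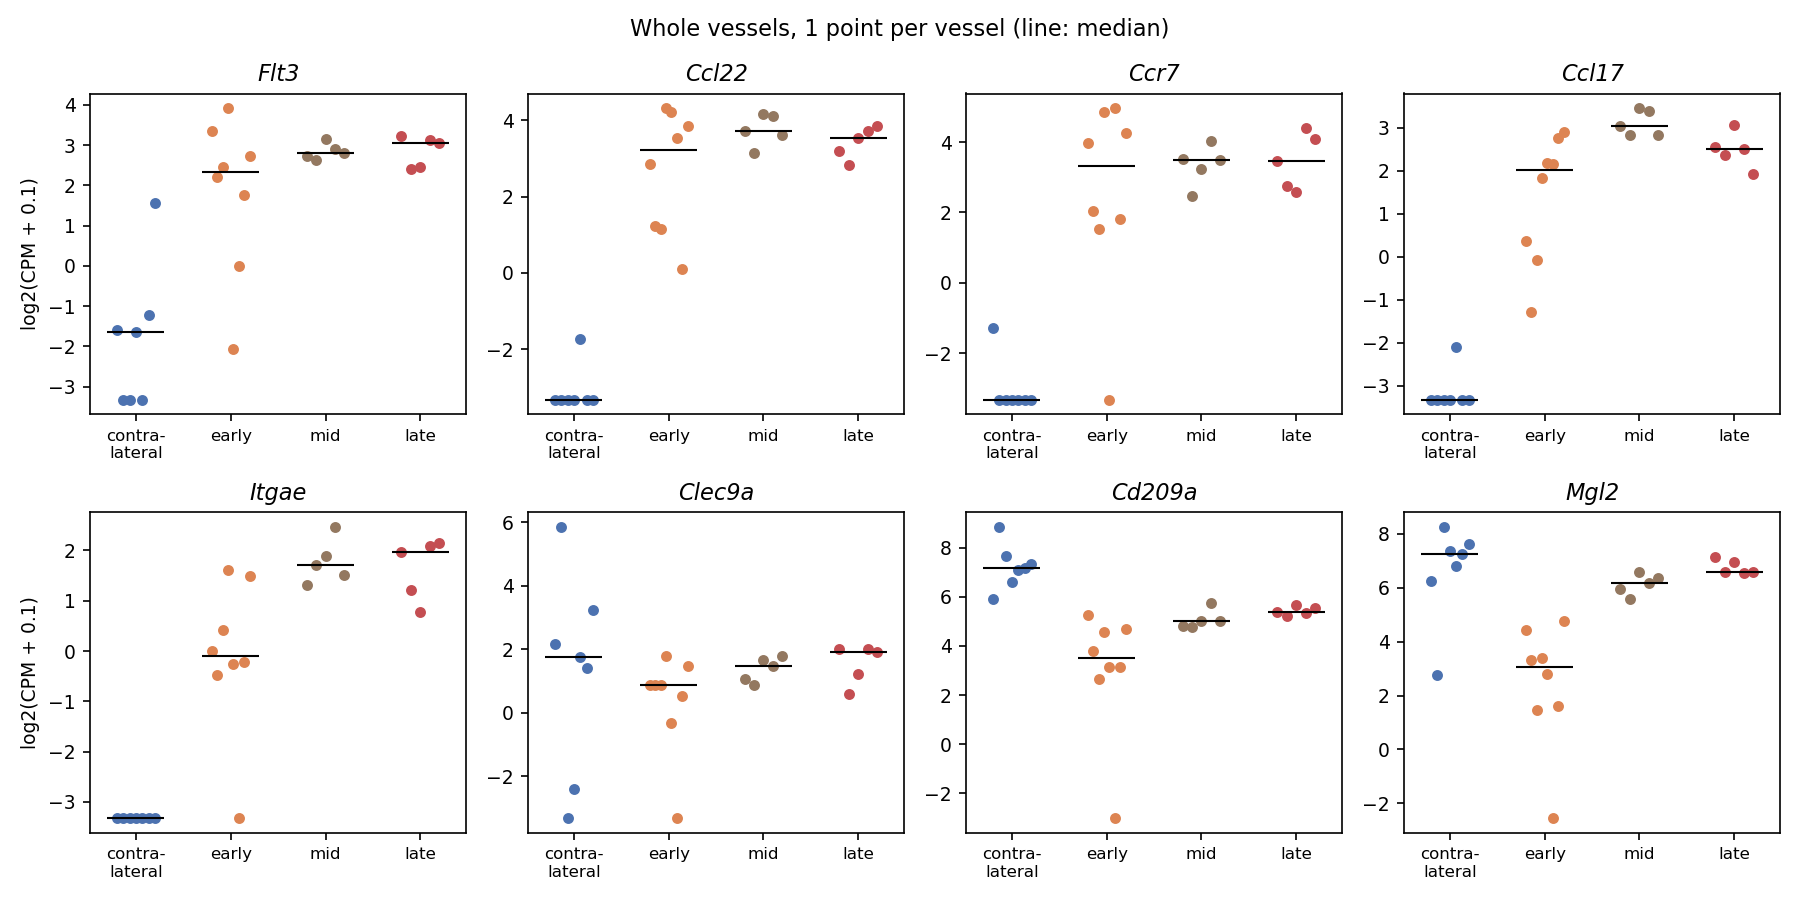
Levels in each vessel (log2 of CPM + 0.1, points; line, median of the group) of *Flt3*, *Ccl22*, *Ccr7*, *Ccl17*, *Itgae*, *Clec9a*, *Cd209a* and *Mgl2* in the 7 contralateral and 8 early, 5 mid and 5 late vessels. *Ccl22* and *Ccl17* are higher in every AVF than in every contralateral vein, while *Cd209a* is lower in every AVF than in every contralateral vein.

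Genes that mark dendritic cells of either stage moved less clearly. *Flt3* was at 0, 0.222 and 2.87 CPM in contralateral veins, 0.141, 4.97 and 15.0 CPM in early AVFs, 6.14, 6.94 and 8.75 CPM in mid AVFs and 5.20, 8.23 and 9.24 CPM in late AVFs. Mid and late AVFs did not overlap with contralateral veins, but the log2 changes of 3.44 ± 1.06, 3.76 ± 1.12 and 3.79 ± 1.13 were not called (adjusted p = 0.0145, 0.0157 and 0.0152). Without contralateral vein 633, the highest control, they were 5.40, 5.72 and 5.75 and all called. *Zbtb46* changed by −1.15, −0.37 and 0.27 on the log2 scale, none called, and endothelial cells also had it. *H2-Aa* changed by 0.05, 0.67 and 0.74 and *Cd74*, the class II invariant chain, by 0.59, 1.47 and 1.61 (adjusted p = 0.0156 in late AVFs), none called.

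Among cDC1 genes, *Itgae* was at 0 in all 7 contralateral veins and had means of 1.24, 3.47 and 3.24 CPM in early, mid and late AVFs, at least 10.5-fold, 29.3-fold and 27.3-fold above the level that 3 counts give. In the single cells it was at or under 0.559 CPM in C1q macrophages, fibroblasts, endothelial cells and B cells. Its level in T cells is not given here. Of 8 T cell genes, 2, 3 and 4 were called higher in early, mid and late AVFs (13.9%, 11.3% and 11.0% of all genes) and 0 lower. Which cells carried the whole-vessel *Itgae* was not tested. *Irf8* was at 0, 11.7 and 29.0 CPM in contralateral veins and 52.9, 69.9 and 125 CPM in early AVFs, a log2 change of 2.59 ± 0.66 (adjusted p = 0.0039), and 2.35 and 2.24 in mid and late AVFs, not called. *Xcr1* changed by 2.02, 2.89 and 3.61 ± 1.59 (adjusted p = 0.115), not called, and was at 0 in 6 contralateral veins and 2.03 CPM in vein 27. Without that vein the changes were 8.21, 9.08 and 9.80 and all called. All remaining contralateral veins were then at 0, so the size of these changes depends on how the fit treats 0 counts. *Clec9a* was at 0, 3.30 and 58.2 CPM in contralateral veins, 0, 1.72 and 3.34 CPM in early and 1.42, 3.67 and 3.92 CPM in late AVFs, with a log2 change of −2.74 ± 1.05 in early AVFs that was not called (adjusted p = 0.0495) and was −0.95 without contralateral vein 28, the highest.

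In whole vessels *Cd209a*, *Mgl2* and *Cd209d* fell in early AVFs, and of the lectins only *Cd209d* was called lower in mid and late AVFs as well. *Cd209a* was at 60.4, 143 and 464 CPM in contralateral veins, 0.0237, 11.3 and 37.9 CPM in early AVFs, 26.8, 32.0 and 53.8 CPM in mid AVFs and 36.6, 41.6 and 50.4 CPM in late AVFs. No AVF reached the lowest contralateral vein, and *Cd209a* fell by 3.53 ± 0.64 on the log2 scale in early AVFs (adjusted p = 1.6e-04). The changes of −2.38 and −2.07 in mid and late AVFs were not called (adjusted p = 0.0177 and 0.0381). *Mgl2* was at 6.70, 150 and 308 CPM in contralateral veins, 0.0710, 8.33 and 27.2 CPM in early, 48.1, 72.5 and 96.2 CPM in mid and 93.2, 95.1 and 142 CPM in late AVFs. It fell by 3.83 ± 0.69 in early AVFs (adjusted p = 1.6e-04), its changes of −1.002 and −0.40 in mid and late AVFs were not called (adjusted p = 0.377 and 0.76), and it rose by 3.43 ± 0.70 from early to late AVFs (adjusted p = 0.00629), where early and late vessels did not overlap. The latter call was lost without early AVF 3, 5 or 7 or without any late AVF, at log2 changes of 3.29 to 3.50. *Cd209d*, another DC-SIGN homologue, fell by 5.83 in early, by 6.02 in mid and by 5.55 in late vessels. *Clec10a* changed by −1.29, −1.24 and −1.05, none called (adjusted p = 0.0107 in early AVFs). C1q macrophages carry *Cd209a* and *Mgl2* too, as given above, so these levels are not those of dendritic cells alone.

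Growth factors and attractants of dendritic cells made up a further list, of which 13 genes were tested one by one. In early AVFs 2 were higher and 2 lower (13.9% and 5.03% of all genes), in mid AVFs 2 and 2 (11.3% and 2.74%), and in late AVFs 1 and 1 (11.0% and 2.43%), so that the share higher was near that of all genes. *Flt3l*, the ligand of Flt3, was at 0.387, 16.3 and 36.8 CPM in contralateral veins and 3.43, 5.48 and 6.98 CPM in early AVFs, a log2 change of −1.72 ± 0.55 that was not called (adjusted p = 0.0196). *Ccl21a*, a ligand of Ccr7 made by lymphatic vessels, was at 0, 26.0 and 73.3 CPM in contralateral veins, 0, 12.9 and 48.8 CPM in early AVFs, 35.9, 105 and 190 CPM in mid AVFs and 111, 176 and 325 CPM in late AVFs. All late AVFs were above all contralateral veins, but neither the change of 2.74 ± 1.08 (adjusted p = 0.0718) nor that from early to late of 3.37 ± 1.05 (adjusted p = 0.0772) was called. *Tslp*, an epithelial cytokine that activates dendritic cells, fell by 2.59 in early, by 2.53 in mid and by 2.22 in late vessels. *Cd40lg*, the T cell ligand of CD40, was at 0 in all 7 contralateral veins and was called higher at all 3 times. By the level that 3 counts give, it was at least 3.70-fold higher in mid and 6.12-fold in late AVFs. Its early mean of 0.139 CPM was barely above that level, and the early call held in only 4 of 6 alternative settings of the fit.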

How the data were processed

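RNA was measured in 3 single-cell libraries (pooled vessels, Chromium 3′ v3) and 25 poly(A) whole-vessel libraries. Both deposited tables hold counts, which the authors did not normalize: UMI counts per gene and barcode, made by Cell Ranger 6.0.2 per the file headers, and read counts per gene. The submitters' processing notes name Cell Ranger and STAR with mm10 and GRCm38. The whole-vessel table lists 56980 gene IDs and follows a newer annotation than the one that goes with that build, and gene names were taken from the single-cell gene list (32210 IDs) and the RefSeq tables (19962), with 4808 IDs left unnamed. Depth was 20254173 to 67457501 reads per vessel. The labels do not say that vessels of a group came from separate animals, and p-values measure the spread between these vessels.

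Dendritic cells were found by the rule given at the start of the results. UMIs were summed over the cells of a library and expressed as CPM with exact Poisson intervals, ratios were given 95% conditional binomial intervals, and shares exact binomial ones. A fold against 0 UMIs was taken against a floor of 3 UMIs over the group. Clusters came from 2000 variable genes without selection, marker and class II genes, 12 principal components, 15 neighbours and Leiden resolution 0.5 (scanpy 1.11.5, leidenalg 0.10.2). Whole vessels were fitted together with edgeR 4.0.16 (R 4.3.3), with TMM, filterByExpr (20076 genes kept) and the quasi-likelihood F test with Benjamini-Hochberg adjustment, and no covariate. This filter replaced the base mean of 100 in the study's methods, since most dendritic cell genes are rare in whole vessels. DESeq2 1.42.0 served as an alternative. Scripts were tested on simulated counts. Named genes were those of the gene lists, the 10 largest ratios in each direction of a pair of libraries and the 5 leading genes of a cluster. A leading gene of one cluster is not reported here. Exceptions to the rule left out of the ranking were mitochondrial, ribosomal and hemoglobin genes and those of the rule. The cells, gene lists and comparisons were chosen with earlier results of these data known. The alternatives without the Lpl and Mmp12 cluster, without *Ccl22* and *Fscn1* in the minimum, and thinned with a minimum of 1 UMI were added after the data were seen.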

Additional observations from a re-analysis of the deposited data

Results flagged for a closer look

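In the whole vessels, 72 groups of vessels (18 genes in 4 groups) were checked for a vessel that lay apart from the rest of its group, and 10 held one. The limit is meant to flag about 1 in 20. That rate does not hold where all vessels but 1 are at 0, since such a group is always flagged. Of these, 8 were contralateral veins. *Clec9a* was at 58.2 CPM, *Cd209a* at 464 CPM and *Il12b* at 0.129 CPM in contralateral vein 28, the shallowest of the contralateral libraries. *Ccl22* was at 0.202 CPM and *Ccl17* at 0.135 CPM in contralateral vein 35. *Xcr1* was at 2.03 CPM and *Ccr7* at 0.313 CPM in contralateral vein 27, and *Flt3* was at 2.87 CPM in contralateral vein 633. Most of these values are above vessels at or near 0. The other vessels that lay apart were mid AVF 14 with *Cd209a* at 53.8 CPM and early AVF 7 with *Cd209d* at 9.03 CPM.

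The effect of the fistula on *Mgl2* differed between early and late AVFs, as tested by the contrast of late with early AVFs (edgeR quasi-likelihood test, log2 difference 3.43, adjusted p = 0.00629). The early and late vessels did not overlap.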

How the results depend on the processing

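The contralateral vein library, with 22 dendritic cells, limits every single-cell ratio, and 1 library per group leaves no replicate check. With at least 1 UMI over the 6 genes the dendritic cell shares were 0.617%, 2.82% and 3.25% (contralateral veins, early and late AVFs), with at least 3 UMIs 1.33% in early and 1.82% in late AVFs, thinned 0.0447%, 0.535% and 0.605%, thinned with at least 1 UMI 1.34% and 1.21% in early and late AVFs, of *Ptprc*-positive barcodes 1.19%, 2.60% and 4.13%, and without the C1q limit 3.16% in late AVFs. Thinned Ccr7-high shares were 5%, 38.6% and 46.9%, Xcr1/Clec9a shares 0%, 1.20% and 2.34%, and the early Cd209a share 6.02%. Genes past the limit, higher and lower, numbered at a ratio of 3 instead of 2, 251 and 205 (early against contralateral), 264 and 379 (late against contralateral) and 298 and 120 (late against early), and thinned 97 and 61, 125 and 93, and 109 and 59. With at least 50 UMIs, 260 and 507 were lower against contralateral veins in early and late AVFs, and 321 higher and 198 lower in late against early AVFs.

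Without the Lpl and Mmp12 cluster the log2 ratio to contralateral veins turned in early AVFs for *Lyz2* (−1.15) and *Ccl6* (−1.70), and in late AVFs for *Lyz2* (−1.02), *Irf4* (−0.48), *Il6* (−1.08), *Ccl6* (−0.67) and *Tlr2* (−0.20), and from early to late for *Tnf* (1.30), *Apoe* (0.00581) and *Ccl3* (0.45, and 0.25 without *Ccl22* and *Fscn1* in the minimum). Thinned, it turned in late AVFs for *Irf4* (−0.36, and −0.11 as a mean over cells) and *Stmn1* (−0.36). Of 1203 alternative values for single genes, 1041 kept their side of the limit. The causes were not tested.

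In whole vessels, at an adjusted p of 0.05, 1663 genes were lower in early vessels, 1006 in mid and 947 in late ones, 197 higher and 429 lower in late against early AVFs, and 23 dendritic cell genes were called in mid AVFs and 2 in late against early AVFs. With a base mean of 100, 782, 347 and 315 genes were higher in early, mid and late AVFs and 289 lower in late against early AVFs, and 6 dendritic cell genes were called in mid and in late AVFs. DESeq2's Wald test called 983 and 911 genes lower in mid and late AVFs and 184 higher and 732 lower in late against early AVFs, with 34, 20 and 2 dendritic cell genes in early, mid and late against early AVFs. edgeR's likelihood ratio test called 156 higher and 343 lower in late against early AVFs, with 2 dendritic cell genes, and sex as a term left 115 lower. Leaving out 1 vessel at a time, dendritic cell genes called ranged from 18 to 26 in early vessels, 11 to 17 in mid, 11 to 17 in late and 0 to 2 in late against early ones. All genes called lower ranged from 321 to 644 in mid and 276 to 579 in late AVFs, lowest without mid AVF 15 and late AVF 19, and in late against early AVFs from 25 to 112 higher and 1 to 273 lower, lowest without late AVF 17 and without late AVF 16, 19 or 24. The single gene of the last count, *Mgl2*, was lost without early AVF 3, 5 or 7 or any late AVF, and a further gene was called without contralateral vein 34. *Csf2* ranged over these fits from −0.96 to 6.60 in mid and −1.17 to 6.33 in late AVFs, and turned upward without contralateral vein 31. The counts of dendritic cell genes in these settings are given without the share of all genes called in the same setting. They show how the counts moved and are no result about the list. Of 6356 alternative values for single genes, 6129 kept their call. No paired analysis was possible because no replicate number is shared between groups.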
